A study of Mus musculus with 18 samples.

Results

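The 6 genes described here, Ccr7, S1pr1, Il7r, Klf2, Tcf7 and Lef1, mark naive T cells and carry out or control the traffic of lymphocytes through lymphoid organs. They were picked out by gene name, from a list drawn up with earlier results of these data known, and are 6 of the 55385 genes in the table. Poly(A) RNA was sequenced from the spleens of 18 mice of 3 genotypes, with 6 libraries per genotype, 3 from males and 3 from females. Dp16_2xIFNRs mice carry the Dp16 segmental duplication of mouse chromosome 16, a model of trisomy 21, with the interferon receptor genes of that segment brought back to 2 copies. Dp16 mice carry the duplication with 3 copies of those receptor genes, and WT mice are C57BL/6J animals without it. The labels name no treatment for any group, and the age label, which runs from 17.1 to 18.0 under a heading of days post conception, is not interpreted here because the series describes the mice as adult.

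A naive T cell has left the thymus but has not met its antigen. It recirculates between blood and lymphoid tissue, and these 6 genes cover the steps of that life. CCR7 is the chemokine receptor that draws T cells and mature dendritic cells into T cell zones along gradients of CCL19 and CCL21. S1PR1 senses sphingosine 1-phosphate, which is rich in blood and lymph, and lets lymphocytes leave; on B cells it also holds marginal zone B cells in place. IL7R is the alpha chain of the receptor for interleukin 7, the survival cytokine of resting T cells. KLF2 is a transcription factor of quiescent lymphocytes and of endothelium that in T cells is needed for S1pr1 expression. TCF7 (TCF-1) and LEF1 are related DNA-binding factors that set up T cell identity in the thymus and keep naive and memory T cells able to self-renew. In the spleen the T cell zone is a sheath around the central arteriole, and B cell follicles and the marginal zone lie next to it, so that a whole spleen library mixes all of these cells.

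None of the 6 genes lies in the duplicated segment of chromosome 16. On GRCm38 with the GENCODE vM21 annotation, Ccr7 spans chr11:99144196-99155077 and Tcf7 chr11:52252371-52283014, both on the minus strand. S1pr1 lies at chr3:115710433-115715072 on the minus strand and Lef1 at chr3:131110471-131224356 on the plus strand. Il7r lies at chr15:9505788-9530176 on the minus strand and Klf2 at chr8:72319033-72321656 on the plus strand.

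Library totals ran from 33998427 to 53021480 counts, and each member had between 1693 and 23506 counts in every library, so that counting error is small beside the spread between mice. The 24 T cell and 16 B cell markers were all detected. Their summed levels were 1720.1 to 2387 CPM for T cells and 3576 to 7044 CPM for B cells over the 18 libraries. These markers do not tell spleen from other lymphoid tissue, and the tissue label was not tested. The gene Gm42418, which overlaps a ribosomal RNA repeat, took 0.691% to 5.51% of counts, with over 4% in 4 libraries. CPM are counts brought to a common library total, here with library sizes adjusted by edgeR's trimmed mean of M-values (TMM).

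The proximal promoters of the transcription factor genes Klf2 and Lef1 are shown because both hold the same type of element while their calls differed. In the fit described here, Klf2 was lower in both Dp16 genotypes and Lef1 passed the test in neither. Lef1 was called under some other settings, given with its values. The RefSeq promoter table (GRCm38.p6) had an entry for 4 of the 6 members: Il7r, Klf2, Tcf7 and Lef1. Both sequences are read 5′ to 3′ on the plus strand, and capitals mark matches on either strand to the KLF box CCNCNCCC, a motif bound by Krüppel-like factors such as KLF2 itself. The Klf2 window is chr8:72318812-72319032, the 221 bases before the first annotated exon, and the Lef1 window is chr3:131110047-131110296, the 250 bases before the RefSeq start.
Klf2: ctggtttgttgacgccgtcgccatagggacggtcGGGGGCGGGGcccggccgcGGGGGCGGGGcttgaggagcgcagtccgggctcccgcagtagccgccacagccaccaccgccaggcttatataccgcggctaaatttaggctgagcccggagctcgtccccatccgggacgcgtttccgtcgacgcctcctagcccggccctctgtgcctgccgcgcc
Lef1: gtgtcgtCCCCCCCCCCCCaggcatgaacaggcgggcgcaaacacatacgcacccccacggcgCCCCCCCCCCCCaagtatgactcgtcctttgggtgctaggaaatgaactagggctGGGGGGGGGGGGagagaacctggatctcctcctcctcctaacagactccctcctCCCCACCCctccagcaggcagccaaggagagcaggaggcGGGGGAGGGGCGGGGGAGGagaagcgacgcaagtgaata
Over the 250 bases before each RefSeq start, Klf2 held 4 overlapping matches in 2 runs, Tcf7 held 5, Lef1 held 20, of which 15 lay in uninterrupted runs of C or G, and Il7r held none. The Tcf7 window holds an ATG followed by an open reading frame to its end, so it may be partly coding sequence of a longer transcript. The Tcf7 matches from 148 to 137 bases before the start lie in that frame. The KLF box occurs in 45.6% of 27025 mouse promoter windows of the same length, so its presence in 3 of 4 members is common. Il7r held 1 match to the STAT site TTCNNNGAA, 142 to 134 bases before its RefSeq start, a motif found in 7.14% of windows. By the GENCODE annotation this Il7r window, chr15:9529877-9530126, lies within the gene, which begins at 9530176, and overlaps 1 exon. No window of the 4 held the TCF/LEF core TCAAAG or the forkhead motif TGTTTAC on either strand, which occur in 14.1% and 3.06% of windows. A match is a description of these letters and says nothing of binding.

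S1pr1 and Klf2 were lower in both Dp16 genotypes than in WT spleens, by about the same amount in each. Ccr7 and Tcf7 were called in 1 comparison each in the fit described here, and each was called in both under some other settings, given with its values. In Dp16_2xIFNRs against WT spleens, 3 of the 6 members were called lower and none higher by edgeR's quasi-likelihood test at a Benjamini-Hochberg adjusted p below 0.05, namely S1pr1, Klf2 and Tcf7, where 14.2% of the 18634 genes tested were called lower, 17.3% higher and 31.4% in either direction. In Dp16 against WT spleens, 3 of 6 were again called lower and none higher, namely S1pr1, Klf2 and Ccr7, where 13.2% of genes were called lower, 16.6% higher and 29.8% in either direction. The median log2 fold change over all genes tested was -0.01 in both comparisons. All 6 members had negative log2 fold changes in both, from -0.64 to -0.20 in Dp16_2xIFNRs and from -0.63 to -0.21 in Dp16 spleens, of which 4 turned positive when scaled to T and B cell markers, as described further on. The comparisons share the same 6 WT libraries and are not independent of each other. S1pr1 and Klf2 were also the members for which every library of either Dp16 genotype lay below every WT library, as was the case for 5.75% of tested genes in Dp16_2xIFNRs and 4.34% in Dp16 spleens. No member lay above every WT library, as 6.83% and 8.48% of genes did. The share of higher calls among all called genes was 54.9% in Dp16_2xIFNRs and 55.7% in Dp16 spleens; it was 43.7% and 43.4% with upper quartile scaling, and 36.9% and 36.1% with limma on the deposited RPKM. In bulk spleen RNA, fewer cells of a type and less RNA per cell cannot be told apart.

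**Figure D1:**
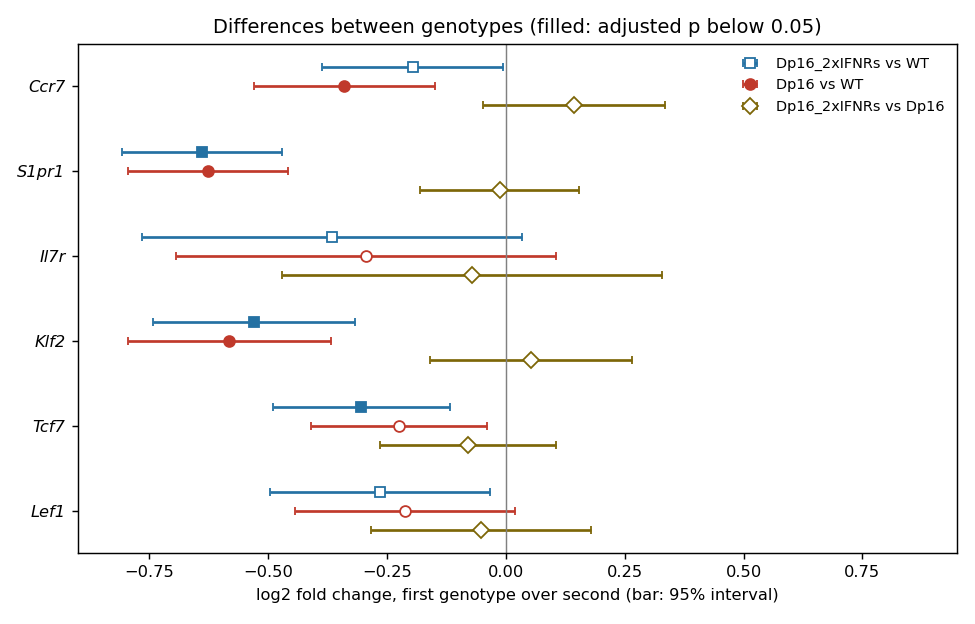
Log2 fold change (x axis) of each of the 6 genes with its 95% interval, for Dp16_2xIFNRs against WT, Dp16 against WT and Dp16_2xIFNRs against Dp16 spleens. S1pr1 and Klf2 lie well below 0 in both comparisons with WT, and every interval between the Dp16 genotypes includes 0.

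Ccr7, the receptor that places T cells in the T cell zone, had a lowest, median and highest level of 91.3, 112 and 147 CPM in Dp16_2xIFNRs, 90.6, 101 and 124 CPM in Dp16 and 118, 126 and 153 CPM in WT spleens. Of the 6 Dp16_2xIFNRs libraries 4 lay below the lowest WT library, and of the 6 Dp16 libraries 5 did, so the ranges overlapped in both cases. The log2 fold change against WT was -0.20 ± 0.09 (SE) in Dp16_2xIFNRs spleens (95% interval -0.39 to -0.01, adjusted p = 0.112). In Dp16 spleens Ccr7 fell by 0.34 ± 0.09 (interval -0.53 to -0.15, adjusted p = 0.00749), or to 0.79 of the WT level. Dp16_2xIFNRs replicate 4 bears on this difference between the calls: without it the log2 fold change of Ccr7 in Dp16_2xIFNRs against WT was -0.27, with an adjusted p of 0.0266. It was also called there with upper quartile scaling (adjusted p = 0.0365) and by limma on RPKM (0.0172).

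S1pr1, the egress receptor, stood at 129, 136 and 154 CPM (lowest, median and highest) in Dp16_2xIFNRs, 119.5, 144 and 152 CPM in Dp16 and 169, 219 and 245 CPM in WT spleens. No library of either Dp16 genotype reached the lowest WT library, and the 2 Dp16 genotypes covered nearly the same range. S1pr1 fell by 0.64 ± 0.08 on the log2 scale in Dp16_2xIFNRs (interval -0.81 to -0.47, adjusted p = 1.81e-05) and by 0.63 ± 0.08 in Dp16 spleens (interval -0.79 to -0.46, adjusted p = 2.07e-05). Its level was 0.642 of WT in Dp16_2xIFNRs and 0.648 of WT in Dp16 spleens. By sex, males had 132 to 142 CPM in Dp16_2xIFNRs, 143 to 152 CPM in Dp16 and 209 to 245 CPM in WT. Females had 129 to 154 CPM in Dp16_2xIFNRs, 119.5 to 148 CPM in Dp16 and 169 to 229 CPM in WT.

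Il7r, the interleukin 7 receptor alpha chain, was the most variable member in Dp16_2xIFNRs and WT and close to Lef1 (16.7%) in Dp16, with a coefficient of variation of 25.8% in Dp16_2xIFNRs, 16.5% in Dp16 and 26.1% in WT libraries. Its lowest, median and highest levels were 46.4, 58.5 and 92.0 CPM in Dp16_2xIFNRs, 51.7, 68.6 and 80.6 CPM in Dp16 and 47.3, 79.9 and 104 CPM in WT spleens. The ranges overlapped almost fully, and the lowest WT value came from WT replicate 2, well below the next WT library at 72.8 CPM. The log2 fold change was -0.37 ± 0.19 in Dp16_2xIFNRs (interval -0.77 to 0.03, adjusted p = 0.161) and -0.29 ± 0.19 in Dp16 (interval -0.69 to 0.11, adjusted p = 0.274). Single libraries decided these calls. Without WT replicate 2, the log2 fold change of Il7r was -0.49 in Dp16_2xIFNRs (adjusted p = 0.0202) and -0.42 in Dp16 (adjusted p = 0.0467). Without Dp16_2xIFNRs replicate 3, the highest of its genotype, that of Dp16_2xIFNRs was -0.51 (adjusted p = 0.0370).

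Klf2, the quiescence factor, had 227, 258 and 279 CPM (lowest, median and highest) in Dp16_2xIFNRs, 198, 253 and 281 CPM in Dp16 and 302, 349 and 469 CPM in WT spleens. As for S1pr1, the highest library of each Dp16 genotype lay below the lowest WT library. The WT libraries spread most, with 2 of them, one of each sex, at 448 and 469 CPM. Klf2 fell by 0.53 ± 0.10 on the log2 scale in Dp16_2xIFNRs (interval -0.74 to -0.32, adjusted p = 0.00054), to 0.693 of the WT level. In Dp16 it fell by 0.58 ± 0.10 (interval -0.79 to -0.37, adjusted p = 0.000274), to 0.668 of the WT level.

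Tcf7, which encodes TCF-1, had 188, 228 and 254 CPM in Dp16_2xIFNRs, 215, 233 and 291 CPM in Dp16 and 236, 274 and 331 CPM in WT spleens, again as lowest, median and highest. In each Dp16 genotype 3 of 6 libraries lay below the lowest WT library, and the others lay within the WT range. It fell by 0.30 ± 0.09 in Dp16_2xIFNRs (interval -0.49 to -0.12, adjusted p = 0.0121), and the log2 fold change in Dp16 was -0.22 ± 0.09 (interval -0.41 to -0.04, adjusted p = 0.0626). Tcf7 sat close to the threshold. In Dp16 against WT it was called by DESeq2 (adjusted p = 0.0423), with RLE (0.0473) or upper quartile scaling (0.0246), with no low count filter (0.0387), with the code in the library descriptions as a block (0.0473) and by limma on RPKM (0.0120). It was also called without WT replicate 1 (-0.26, adjusted p = 0.0490), without WT replicate 2 (-0.26, adjusted p = 0.0344) and without Dp16 replicate 2 (-0.28, adjusted p = 0.0248). In Dp16_2xIFNRs against WT leaving out the 4 libraries with over 4% Gm42418 ended the call (-0.23, adjusted p = 0.0895).

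Lef1, the partner factor of TCF-1, had 89.7, 98.1 and 117 CPM in Dp16_2xIFNRs, 87.9, 96.8 and 131 CPM in Dp16 and 88.2, 119 and 155 CPM in WT spleens. The ranges overlapped in both comparisons, with no Dp16_2xIFNRs library and 1 Dp16 library below the lowest WT library. The log2 fold change was -0.27 ± 0.11 in Dp16_2xIFNRs (interval -0.50 to -0.03, adjusted p = 0.0763) and -0.21 ± 0.11 in Dp16 (interval -0.44 to 0.02, adjusted p = 0.164). Lef1 was called in Dp16_2xIFNRs against WT with the description code as a block (adjusted p = 0.0465), with upper quartile scaling (0.0368) and by limma on RPKM (0.0200), where it was also called in Dp16 (0.0426). Leaving out 1 library made the same call in Dp16_2xIFNRs, without WT replicate 2 (-0.33, adjusted p = 0.0231) and without Dp16_2xIFNRs replicate 3 (-0.34, adjusted p = 0.0209).

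**Figure D2:**
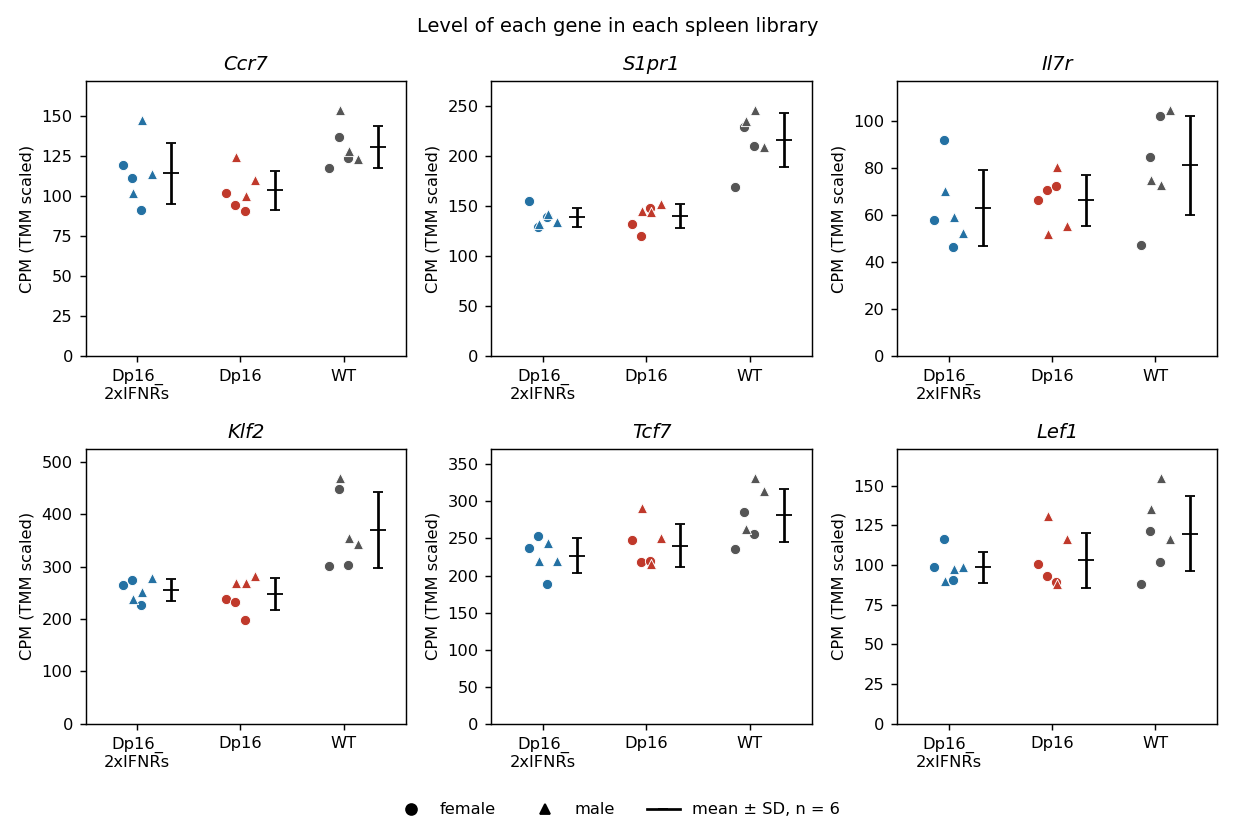
Level in TMM-scaled CPM (y axis, from 0) of each of the 6 genes in every library, with the mean and SD per genotype (n = 6 each) and sex marked by symbol. For S1pr1 and Klf2 all 6 WT points lie above all points of Dp16_2xIFNRs and Dp16, while for Il7r and Lef1 the groups overlap.

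Between the 2 Dp16 genotypes, which differ in interferon receptor copy number, no member was called by edgeR's quasi-likelihood test, by DESeq2 or by limma, where 0.0215% of tested genes (4, all lower) were called by edgeR. The libraries of the 2 genotypes overlapped for every member, where 0.0322% of genes lay wholly below Dp16 and 0.0537% wholly above. No member had an unadjusted p below 0.05 either, the smallest being 0.133 for Ccr7, and all adjusted p were 1. The intervals give the size of difference that these libraries leave possible. That of S1pr1 was -0.18 to 0.15 around a log2 fold change of -0.01, and that of Klf2 was -0.16 to 0.26 around 0.05. For Ccr7 it was -0.05 to 0.33 around 0.14, for Tcf7 -0.27 to 0.11 around -0.08, and for Lef1 -0.28 to 0.18 around -0.05. Il7r had the widest interval, -0.47 to 0.33 around -0.07.

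Levels of different genes were compared per transcript length, as the deposited RPKM. These imply lengths of 3506 bases for Lef1 and 3540 for Il7r, where all their exons in GENCODE vM21 cover 8788 and 4663. The order of Lef1 and Il7r therefore depends on the length used. Klf2 had the highest mean in every genotype, at 135 RPKM in Dp16_2xIFNRs, 130.4 RPKM in Dp16 and 211 RPKM in WT spleens, and Tcf7 came second at 75.1, 79.4 and 101 RPKM in the same order. Lef1 and Il7r came last, at 27.4 and 17.3 RPKM in Dp16_2xIFNRs, 28.6 and 18.2 RPKM in Dp16, and 36.0 and 24.2 RPKM in WT. The order of the middle pair differed. Ccr7 was above S1pr1 in mean level in Dp16_2xIFNRs (56.2 and 44.3 RPKM, above in 6 of 6 libraries) and in Dp16 (50.8 and 44.7 RPKM, 5 of 6 libraries). In WT spleens S1pr1 was above Ccr7 (74.9 and 69.6 RPKM, 4 of 6 libraries). The ranges of Ccr7 and S1pr1 overlapped in all 3 genotypes, so their order is not fixed by these libraries, and Lef1 and Il7r overlapped in Dp16_2xIFNRs and WT. Tcf7 overlapped with the next gene in the order in Dp16_2xIFNRs (Ccr7) and in WT (S1pr1).

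Of the 2 cell types that carry most of the members, B cells had lower marker levels in the Dp16 genotypes. T cell markers were called lower at a share near that of all genes. The 24 T cell markers summed to 1720.1 to 2308 CPM in Dp16_2xIFNRs, 1909.9 to 2368 CPM in Dp16 and 1818 to 2387 CPM in WT libraries, and these ranges overlap. By edgeR 4 of 24 T cell markers were called lower and none higher in each Dp16 genotype, with median log2 fold changes of -0.11 in Dp16_2xIFNRs and -0.10 in Dp16. Of all genes tested, 14.2% were called lower in Dp16_2xIFNRs and 13.2% in Dp16. The CD8 coreceptor gene Cd8a was among them, with log2 fold changes of -0.59 ± 0.09 in Dp16_2xIFNRs (adjusted p = 0.0001) and -0.60 ± 0.09 in Dp16 (adjusted p = 9.86e-05). Cd8b1, its partner chain, had -0.21 ± 0.10 (adjusted p = 0.112) in Dp16_2xIFNRs and -0.33 ± 0.10 (adjusted p = 0.0151) in Dp16. The 16 B cell markers summed to 3585 to 4467 CPM in Dp16_2xIFNRs, 3576 to 4251 CPM in Dp16 and 4907 to 7044 CPM in WT, with no overlap with WT, and 15 of 16 were called lower in each Dp16 genotype (median log2 fold changes -0.58 and -0.63). Fcmr, the IgM Fc receptor, had the smallest p of the list in Dp16 and fell by 0.92 in Dp16_2xIFNRs and by 0.89 in Dp16. B cells also express Ccr7, S1pr1 and Klf2. The members were therefore also counted against marker RNA, with 2 other scalings. These change the reference for every gene at once and cannot measure the share of B cells in the differences.

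Counted against T cell markers, S1pr1 and Klf2 stayed lower in both Dp16 genotypes. Per 100 T cell marker counts there were 6.91 ± 0.943 S1pr1 counts in Dp16_2xIFNRs, 6.86 ± 0.683 in Dp16 and 9.99 ± 0.670 in WT spleens (SD, n = 6 each). The ranges, 5.58 to 7.93 in Dp16_2xIFNRs, 6.12 to 7.74 in Dp16 and 9.01 to 10.6 in WT, left a gap below WT. Klf2 had 12.7 ± 0.937 counts per 100 in Dp16_2xIFNRs, 12.1 ± 1.28 in Dp16 and 17.1 ± 2.89 in WT, again without overlap with WT. How many of all genes separate from WT on this scaling was not counted, so how unusual this is cannot be judged. Refitted with the T cell marker sum as library size, 2 members were called lower in Dp16_2xIFNRs, where 6.02% of genes were: S1pr1 (log2 fold change -0.53) and Klf2 (-0.43). In Dp16, 3 were called lower, where 6.24% of genes were: S1pr1 (-0.54), Klf2 (-0.50) and Ccr7 (-0.27). None was called higher, where 17.2% of genes were in Dp16_2xIFNRs and 14.6% in Dp16. Tcf7 in Dp16_2xIFNRs was no longer called (-0.21, adjusted p = 0.0669).

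Counted against T and B cell markers together, the differences of S1pr1 and Klf2 were smaller, as the level of all genes shifted upward. S1pr1 had 2.32 ± 0.206 counts per 100 T and B marker counts in Dp16_2xIFNRs, 2.39 ± 0.218 in Dp16 and 2.68 ± 0.134 in WT, and Klf2 had 4.28 ± 0.306, 4.22 ± 0.417 and 4.57 ± 0.537 in the same order. On this scaling S1pr1 was still called lower in Dp16_2xIFNRs (log2 fold change -0.21, adjusted p = 0.0453), where 0.885% of genes were, and not in Dp16 (-0.17, adjusted p = 0.112), where 0.682% were, and Klf2 was called in neither (-0.10 and -0.12). The other 4 members changed sign. Ccr7 was called higher in Dp16_2xIFNRs (0.22, adjusted p = 0.0356), where 44.2% of genes were called higher, and Tcf7 (0.22, adjusted p = 0.0494) and Lef1 (0.25, adjusted p = 0.0406) in Dp16, where 46.5% were. On this scaling the median log2 fold change of all genes was 0.42 in Dp16_2xIFNRs and 0.44 in Dp16. Subtracting it returns values close to those on total RNA, by construction. S1pr1 then stood at -0.63 and Klf2 at -0.51 in Dp16_2xIFNRs, and at -0.60 and -0.55 in Dp16, with the other members between -0.36 and -0.19. How far the lower B cell marker level accounts for S1pr1 and Klf2 in whole spleen was not tested.

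**Figure D3:**
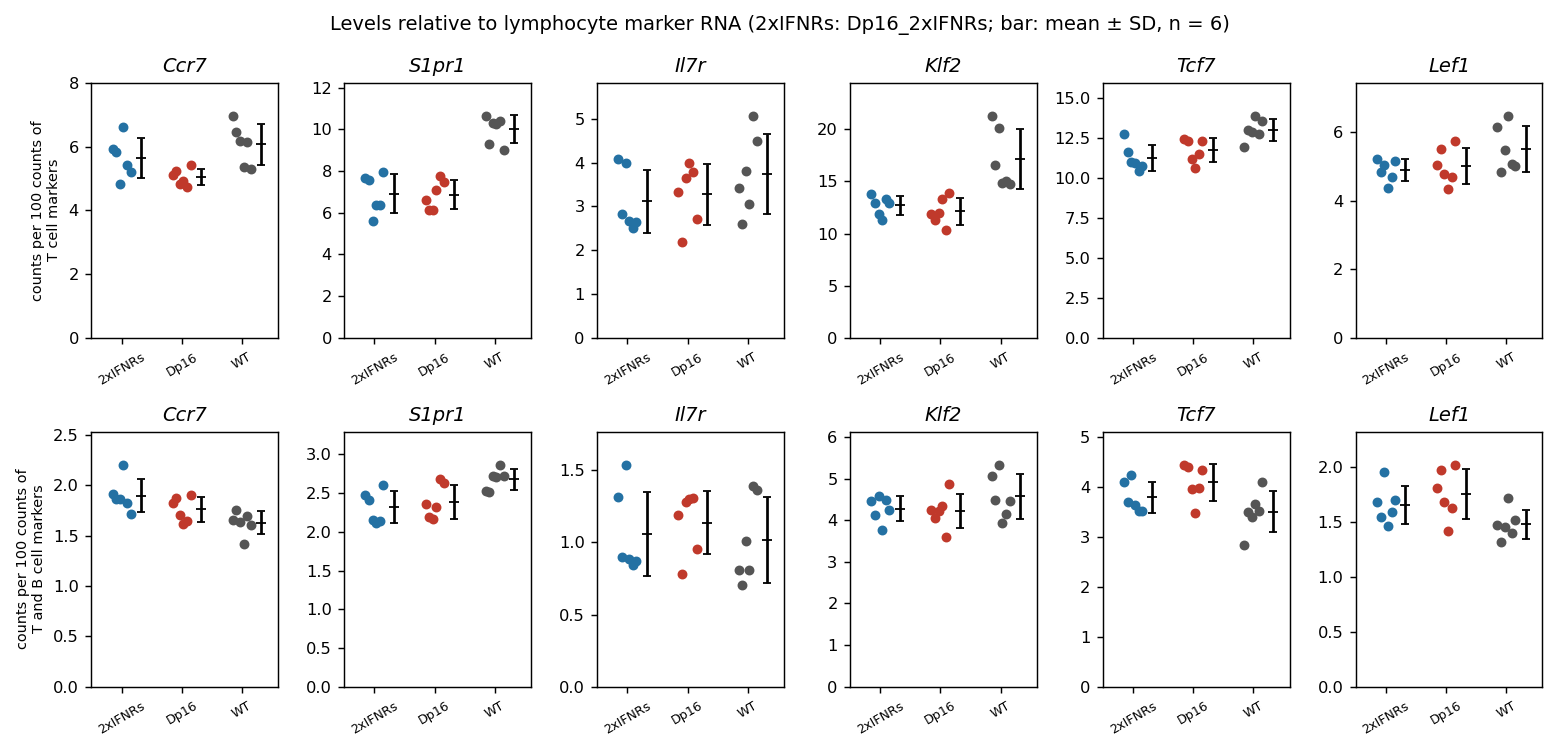
Counts of each gene per 100 counts of the 24 T cell markers and per 100 counts of the 24 T and 16 B cell markers together (y axes), in every library, with the mean and SD per genotype (n = 6 each). Per T cell marker count, S1pr1 and Klf2 are lower in every Dp16_2xIFNRs and Dp16 library than in any WT library. The share of all genes that do so was not counted. Per T and B cell marker count the genotypes overlap.

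Neutrophil and erythroid genes had larger differences than the members. All 14 neutrophil genes were called higher in both Dp16 genotypes (median log2 fold changes 2.37 in Dp16_2xIFNRs and 2.61 in Dp16), and all 16 erythroid genes were too (1.67 and 1.63). Their summed levels were 3797 to 6383 CPM in Dp16_2xIFNRs, 3368 to 11129 CPM in Dp16 and 457 to 2011 CPM in WT for neutrophils. For erythroid genes they were 21265 to 45218 CPM in Dp16_2xIFNRs, 23421 to 43398 CPM in Dp16 and 5916 to 21082 CPM in WT, so that both lists separated from WT. The 12 endothelial genes, of interest because KLF2 and S1PR1 are also made by endothelium, summed to 564 to 651 CPM in Dp16_2xIFNRs, 573 to 652 CPM in Dp16 and 708 to 917 CPM in WT. Of them 7 were called lower in Dp16_2xIFNRs and 6 in Dp16, among them Pecam1 (log2 fold changes -0.37 and -0.38). In these comparisons 14.2% and 13.2% of all genes were called lower, and 17.3% and 16.6% higher. The part of endothelial cells in the members' differences was not tested.

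Among 23 further genes of naive and quiescent T cells, 14 were called lower in Dp16_2xIFNRs and 13 in Dp16 spleens, with none higher and median log2 fold changes of -0.33 and -0.32. The shares of all genes called lower were 14.2% and 13.2%. Like the other gene lists, this one was chosen with earlier results of these data known, so its counts are a description. Foxp1, a factor that holds T cells in quiescence, fell by 0.72 in Dp16_2xIFNRs and by 0.65 in Dp16. Ets1 fell by 0.61 and by 0.56, and the survival gene Bcl2 by 0.80 and by 0.71, in the same order. Foxp1, Ets1 and Bcl2 are also expressed by B cells. Of 15 genes of activated and effector T cells, 2 were called lower and none higher in each comparison: Zeb2 (-0.32 in Dp16_2xIFNRs and -0.29 in Dp16) and Il2rb (-0.36 and -0.28). The list's median was -0.07 and -0.04, near that of all genes, and the chemokine receptor gene Cxcr3 had 0.26 (adjusted p = 0.224) and 0.34 (adjusted p = 0.115).

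The ligand genes of CCR7 were not called. Ccl19 averaged 13.2 CPM in Dp16_2xIFNRs, 10.9 CPM in Dp16 and 13.6 CPM in WT, with log2 fold changes of -0.09 (adjusted p = 0.897) and -0.37 (adjusted p = 0.501). Ccl21a had log2 fold changes of -0.11 (adjusted p = 0.516) in Dp16_2xIFNRs and 0.10 (adjusted p = 0.560) in Dp16, and its counts are uncertain because near-identical copies of the gene exist. Of the 9 genes of this axis, 2 were called lower in each comparison, where 14.2% of all genes were in Dp16_2xIFNRs and 13.2% in Dp16. These were Dock2, which activates Rac in migrating lymphocytes (-0.58 in Dp16_2xIFNRs and -0.51 in Dp16), and Grk6, a kinase that turns off chemokine receptors (-0.35 and -0.39). Gnai2, the inhibitory G protein subunit through which CCR7 and S1PR1 signal, had 0.08 (adjusted p = 0.272) in Dp16_2xIFNRs and rose by 0.16 in Dp16 (adjusted p = 0.0287). The list's medians were -0.09 and -0.05. The mature dendritic cell genes, whose cells also use CCR7, had 3 of 10 tested members called lower in Dp16_2xIFNRs and 5 of 10 in Dp16. Relb, an NF-κB subunit needed for these cells, fell by 0.42 and by 0.56. The B cell list above moved in the same direction, and the part of B cells in these dendritic cell calls was not tested.

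In the sphingosine 1-phosphate axis, of 13 tested genes, 2 were called higher and 4 lower in Dp16_2xIFNRs, and 3 higher and 4 lower in Dp16. Over all genes 17.3% and 16.6% were called higher and 14.2% and 13.2% lower. Sphk1, a kinase that makes the ligand, averaged 51.3 CPM in Dp16_2xIFNRs, 50.02 CPM in Dp16 and 18.8 CPM in WT. It rose by 1.51 ± 0.21 and by 1.45 ± 0.21 on the log2 scale (adjusted p = 9.86e-05 and 0.000129). Spns2, the transporter through which endothelium releases the ligand, averaged 22.7 CPM in Dp16_2xIFNRs, 21.5 CPM in Dp16 and 34.8 CPM in WT, and fell by 0.62 and by 0.69. Among the other receptors, S1pr3 fell by 0.64 and by 0.69, S1pr4, a receptor of lymphoid and myeloid cells, fell by 0.47 in both genotypes, and S1pr2 had 0.54 (adjusted p = 0.0879) and 0.60 (adjusted p = 0.0612). The erythroid and endothelial lists above moved in the same directions as Sphk1 and Spns2, and their part was not tested.

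The interleukin 7 axis had more genes lower than higher. Of 12 genes, 6 were called lower and 1 higher in Dp16_2xIFNRs, and 5 lower and 1 higher in Dp16, with median log2 fold changes of -0.21 and -0.23. Among all genes, 14.2% and 13.2% were called lower and 17.3% and 16.6% higher, in the same order. The cytokine gene Il7 was low in all genotypes, at 5.48 CPM in Dp16_2xIFNRs, 5.73 CPM in Dp16 and 7.75 CPM in WT on average. It fell by 0.50 in Dp16_2xIFNRs (adjusted p = 0.0300) and had a log2 fold change of -0.44 in Dp16 (adjusted p = 0.0606). Il2rg, the shared receptor chain that pairs with IL7R, had -0.15 (adjusted p = 0.210) in Dp16_2xIFNRs and -0.19 (adjusted p = 0.1004) in Dp16. Of the downstream genes, the kinase gene Jak1 fell by 0.41 and by 0.35, and the survival gene Mcl1 by 0.31 and by 0.35. Bcl2, named above among the naive and quiescent T cell genes, is counted in this list too. Innate lymphoid cells, which also carry IL7R, had 9 tested genes, of which 1 was called higher in each genotype and 2 lower in Dp16_2xIFNRs; the one that rose was Il1rl1 (1.30 and 1.44), which mast cells and basophils express too. Precursor B cells are another source of Il7r. Of 5 tested genes of their list, 1 was called higher in each genotype, Cd24a, which erythroid cells and neutrophils express too, with log2 fold changes of 1.28 in Dp16_2xIFNRs and 1.23 in Dp16. Cd24a made up most of the list, whose sum had medians of 1409.9 CPM in Dp16_2xIFNRs, 1664 CPM in Dp16 and 667 CPM in WT. The other call was Vpreb3, which fell by 0.50 in Dp16 (adjusted p = 0.0173) and had -0.16 in Dp16_2xIFNRs (adjusted p = 0.472), while the defining genes Vpreb1 and Rag1 averaged below 1 CPM in every genotype. The part of these cells in the level of Il7r was not tested.

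Of 13 partners and targets of TCF and LEF factors, 8 were called lower and none higher in each comparison, with median log2 fold changes of -0.34 in Dp16_2xIFNRs and -0.36 in Dp16. For all genes tested the called-lower shares were 14.2% in Dp16_2xIFNRs and 13.2% in Dp16. Axin2, a target gene of β-catenin with TCF and LEF factors, averaged 11.5 CPM in Dp16_2xIFNRs, 10.2 CPM in Dp16 and 17.8 CPM in WT. It fell by 0.64 ± 0.14 and by 0.80 ± 0.14 (adjusted p = 0.00173 and 0.000315). The corepressor gene Tle4 fell by 0.45 and by 0.52, and Apc, a part of the β-catenin destruction complex, by 0.55 and by 0.57. Of 16 genes of lymphoid organ homing, 6 were called lower in Dp16_2xIFNRs and 5 in Dp16, with none higher. Cxcl13, the chemokine of B cell follicles, fell by 0.68 and by 0.75, and Cxcr5, its receptor, by 0.60 and by 0.59. Between Dp16_2xIFNRs and Dp16 spleens no gene of any of these lists was called.

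**Figure D4:**
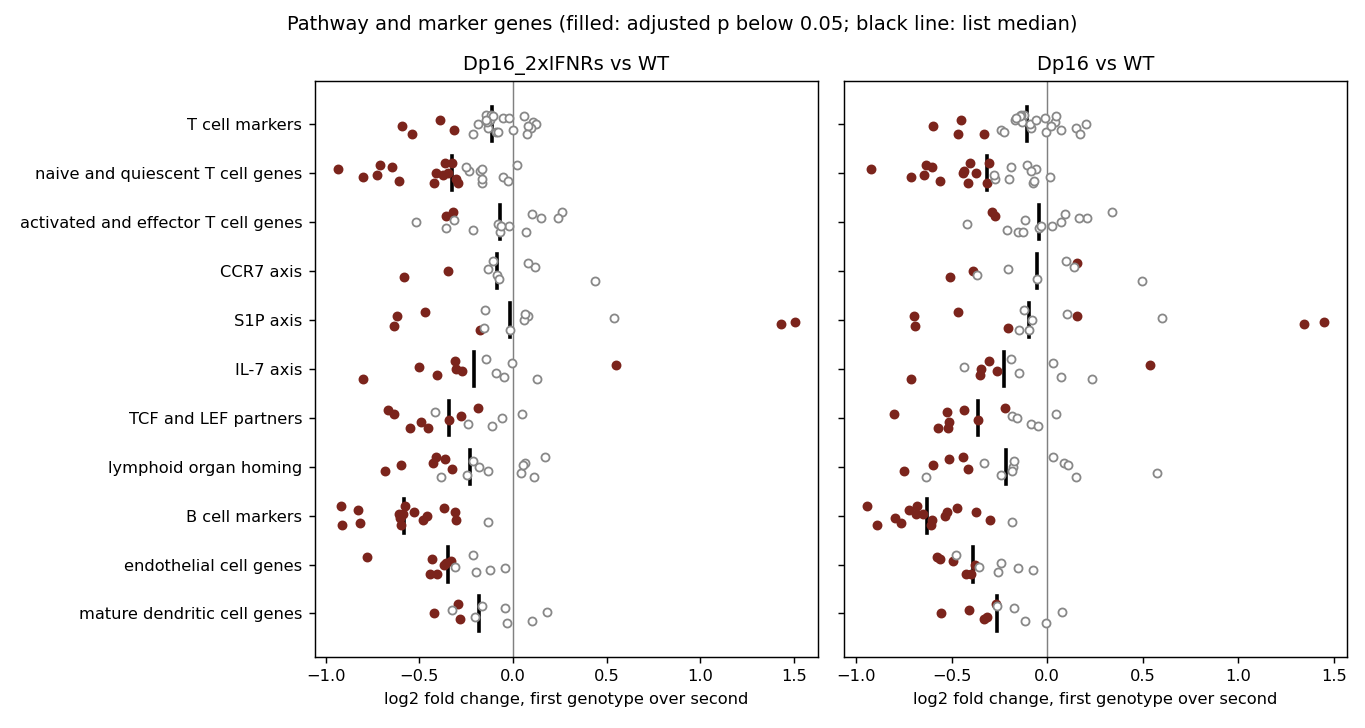
Log2 fold change against WT (x axis) of the genes of each list, for Dp16_2xIFNRs and Dp16 spleens, with the list's median. The neutrophil, erythroid, innate lymphoid and precursor B cell lists are not drawn. The B cell list centres near -0.6 (medians -0.58 and -0.63) and the T cell list near -0.1 (-0.11 and -0.10).

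Sex made no called difference in the members, of which none passed in females against males (0.258% of genes did), with adjusted p of 0.529 or more. Ccr7 had the smallest unadjusted p, 0.0395, with a log2 fold change of -0.16 in females. No member and no gene of the 18634 passed a test of whether the genotype difference depended on sex, for any pair of genotypes. Lef1 came closest in Dp16_2xIFNRs against WT, with -0.03 in females and -0.51 in males (unadjusted p = 0.0319, adjusted p = 1.00). Klf2 had -0.46 in females and -0.60 in males in Dp16_2xIFNRs, and -0.66 and -0.51 in Dp16.

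Within genotype and sex, the members followed different genes across the 18 libraries. The measure was Pearson's r of log2 CPM after the genotype and sex means were removed, over 9970 genes with a mean log2 CPM above 3; the libraries share depth and cell composition, and the values are a description. Tcf7 and Lef1 had the highest r of any pair of members, 0.77, with Tcf7 at rank 19 among all genes for Lef1 and Lef1 at rank 45 for Tcf7. Both were near Bcl11b, a T cell identity factor (r 0.84 with Tcf7 and 0.81 with Lef1). The nearest gene was Arf3 for Tcf7 (0.86) and Thy1, a T cell surface glycoprotein, for Lef1 (0.85), followed by Helz, Clip1 and Inpp4b for Tcf7 (0.84 each) and by Cmtm6, Fbxl14 (0.82 each) and Ppig (0.81) for Lef1. The median r with the T cell markers was 0.63 for Tcf7 and 0.55 for Lef1, and with the B cell markers 0.18 and 0.36. With the erythroid genes it was -0.70 for Tcf7 and -0.57 for Lef1, and with the neutrophil genes -0.24 and -0.44.

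S1pr1 and Klf2 had a median r of 0.48 and 0.52 with the B cell markers and of 0.25 and 0.31 with the T cell markers. With the erythroid genes it was -0.59 for S1pr1 and -0.07 for Klf2, and with the neutrophil genes -0.22 and -0.59. The genes nearest S1pr1 were Shisa5 (0.90), Tnip1 and Hhex (0.86 each), Adgre5 (0.85) and Axin1 (0.83). Those nearest Klf2 were Gnl1 (0.84), Spib, a B cell and plasmacytoid dendritic cell factor (0.82), Scamp3 and Rhof (0.80 each) and Phc2 (0.78). The r between S1pr1 and Klf2 was 0.35. Ccr7 had 0.43 with T cell and 0.52 with B cell markers, -0.15 with erythroid and -0.13 with neutrophil genes, and was nearest to Utp15 (0.87), Bin1 (0.86), Ppp2r2a (0.85), Gpatch11 and Traf3ip3 (0.84 each). Il7r had a median r of 0.23 with T cell markers, 0.03 with B cell markers, -0.37 with erythroid genes and -0.18 with neutrophil genes, and an r of at most 0.26 with any other member. Its nearest gene, Pdcd4, had an r of 0.96, the highest value found for any member, followed by Pik3ip1, an inhibitor of phosphoinositide 3-kinase (0.90), Ppp1r21 (0.87), Fkbp5, a co-chaperone of the glucocorticoid receptor (0.86), and Got1 (0.85).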

How the data were processed

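Spleen poly(A) RNA of 18 mice was measured by strand-specific paired-end sequencing, per the labels' protocols. The deposited tables hold raw read counts per gene and RPKM made by the authors for GENCODE vM24 gene models, per the file headers and table names. Per the submitters' processing notes, the build was GRCm38 and the tools included HTSeq 0.6.1, HISAT2 2.1.0, SAMtools 1.5, FastQC 0.11.5 and bcl2fastq. Which strand setting the counting used is not given in the sources used here. Deposited counts were tested with edgeR 4.0.16 in R 4.3.3: genes with low counts were removed by filterByExpr (18634 of 55385 kept, the 6 members among them), libraries were scaled by TMM, and genotype and sex were fitted over 18 libraries with the robust quasi-likelihood test. P-values were adjusted by Benjamini-Hochberg over all genes tested, with a threshold of 0.05, and intervals cover 95%. Interactions came from a fit with a mean for each sex and genotype. DESeq2 1.42.0 and limma 3.58.1 served as alternatives, the last also on log2 of RPKM with 0.1 added. Scripts were tested on simulated data. CPM used TMM library sizes, and log2 CPM for likeness a prior count of 2.

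The 6 members and the gene lists were chosen with earlier results of these data known. The genes named are the members, the 5 genes nearest to each member by r (predicted genes and receptor segments left out), up to 3 genes of each list with the smallest p in Dp16 against WT, and the fixed receptors and ligands Ccl19, Ccl21a, S1pr2, S1pr4, Sphk1, Il7 and Il2rg. Some genes that this rule names are not reported here. Vpreb1 and Rag1 were added after their values were seen. Libraries of one genotype differed beyond sampling noise in all 45 pairs (chi-square per degree of freedom 32.3 to 180.5). Separately prepared libraries of the same mouse could also differ in this way, so the check cannot show that the mice were separate. Each library was counted as its own sample. The labels give a sex and an age for each library and do not state litters or cages. The description codes include 5 that 11 libraries share, across genotypes, whose meaning the labels do not give; a fit with the code as a block was an alternative.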

Additional observations from a re-analysis of the deposited data

Results flagged for a closer look

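One library stood apart from the others of its genotype. Lef1 in Dp16_2xIFNRs replicate 3 was at 117 CPM, the highest of its group, and its gap to the next library took 0.662 of the group's range, above Dixon's 95% critical value for 6 samples. It was the one such case among 18 combinations of gene and genotype, and chance gives about 1 in 20. Without this library the log2 fold change of Lef1 in Dp16_2xIFNRs against WT was -0.34 (adjusted p = 0.0209, edgeR) in place of -0.27 (adjusted p = 0.0763). The same library was the highest of its genotype for Il7r, at 92.0 CPM.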

How the results depend on the processing

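S1pr1 and Klf2 were called lower in Dp16_2xIFNRs and in Dp16 against WT under all 32 alternatives on total RNA, as was Ccr7 in Dp16 against WT. S1pr1 ranged from -0.75 to -0.57 in Dp16_2xIFNRs and from -0.74 to -0.54 in Dp16 (adjusted p at most 0.000474 and 0.000964). Klf2 ranged from -0.63 to -0.44 and from -0.68 to -0.49 (at most 0.0039 and 0.00358). The number of members called, 3 in each comparison with WT, was 4 in Dp16 with RLE or upper quartile scaling, no low count filter, DESeq2 or the description code as a block, 4 in Dp16_2xIFNRs with that block, 2 in Dp16_2xIFNRs scaled to T cell markers or without the libraries over 4% Gm42418, 5 in both with limma on RPKM and 5 in Dp16_2xIFNRs with upper quartile scaling, and 3 to 5 in both when single libraries were left out (5 without WT replicate 2, and in Dp16_2xIFNRs also without its replicate 3). Upper quartile scaling and limma on RPKM called more of all genes lower too. In Dp16_2xIFNRs, 3451 and 3958 of 18634 genes were called lower, against 2643 in the fit reported above. In Dp16 they were 3333 and 3924, against 2462. Scaled to T and B cell markers the number of members called was 2 in each: 1 lower and 1 higher in Dp16_2xIFNRs, both higher in Dp16. Members that changed sign there were Ccr7 (0.22 in Dp16_2xIFNRs and 0.11 in Dp16), Il7r (0.0599 and 0.16), Tcf7 (0.11 and 0.22) and Lef1 (0.17 and 0.25). The scaling moved all genes up, to medians of 0.42 in Dp16_2xIFNRs and 0.44 in Dp16, and these members lay below that median. A cause beyond this shift was not tested. Between Dp16_2xIFNRs and Dp16 no alternative called a member, and signs near 0 turned. S1pr1 had 0.0108 scaled to T cell markers and 0.0015 with the library index of the description as a term, Il7r 0.0230 and Klf2 -0.0015 with that term, and Lef1 0.0095 without the libraries over 4% Gm42418. Leaving out single libraries gave ranges of -0.0599 to 0.0164 for S1pr1, -0.22 to 0.0110 for Il7r and -0.13 to 0.0081 for Lef1, with 0 members called throughout. With the sample number as a replicate block 3, 3 and 0 members were called; same-numbered libraries of different genotypes correlated by 0.019 on average over 18 pairs, so the numbers were not taken as pairs. Limits: bulk RNA does not separate cell number from RNA per cell, the calls of Il7r, Tcf7 and Lef1 moved with single libraries, and depth was not limiting, with at least 1693 counts per member and library.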
